A study of Oryza sativa Japonica Group with 96 samples.

Results

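Rice stem bases of the CRL1-inducible line DXC were compared between 6 h and 3 h after the addition of dexamethasone, over all 36643 features of the array and with each experiment compared with itself. The comparison rests on 6 of the 96 arrays of the series, 3 at each hour, 1 from each of 3 independent experiments. Crown roots arise in the stem base of a rice seedling, and every array held RNA from a pool of stem bases, with 10 to 15 collected per sample. Both lines of the study were the crl1 mutant of cultivar Taichung 65, which forms no crown roots. DXC carried the vector pINDEX2 with the CRL1 gene under dexamethasone control and is a single transformed line (DXC3), and DX carried the same vector empty. Plantlets of both lines were grown for 5 days with 14 h of light a day and rested for 24 h in flasks. They then received 1 µM dexamethasone, which was taken away at 5 h with a change of medium. The 3 h samples were therefore collected in the inducer and the 6 h samples 1 h after it was removed. This held in DXC and in DX alike. Within DXC, longer induction, the medium change and the later hour of day cannot be told apart. The same step in DX, 6 arrays that share no array with DXC, is given as the control. No promoter is named for the vector in the labels. In pooled stem bases more cells of a type and more RNA per cell cannot be told apart.

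CRL1 is a plant-specific transcription factor of the LBD family and is needed to start crown roots in rice. Crown roots begin as primordia in the stem, where auxin is the main known trigger. Auxin leads to the breakdown of Aux/IAA repressors and so frees auxin response factors (ARFs), and WUSCHEL-type homeobox genes mark the primordium, QHB in the quiescent centre of the root tip and WOX11 in growing crown roots. No feature was tied to CRL1 by the annotation used here, so the level of the induced gene itself was not analysed here.

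Values are log2 expression levels normalised by the authors with GCRMA, and a step is the 6 h level minus the 3 h level. A step of 1 is therefore a doubling of the normalised signal. Steps were tested with limma, two-sided, and a feature was called when its Benjamini-Hochberg adjusted p over all features was under 0.05. In the 12 arrays of both lines at 3 h and 6 h, array medians lay between 4.68 and 4.76, and correlations between arrays of a group had a median of 0.964 and a lowest of 0.890. The spread of values over features was 1.63 to 1.68 (SD) in DXC arrays and 1.40 to 1.61 in DX arrays. Markers of other tissues gave no call in the DXC step. Only some of the 11 KNOX genes mark the shoot meristem. The whole list averaged 4.53 to 4.69 in DXC arrays at 3 h and 4.52 to 4.59 at 6 h. The 13 photosynthesis genes of leaf averaged 5.97 to 6.25 at 3 h and 5.98 to 6.13 at 6 h. The 14 seed storage and amylase genes, which mark grain remains, averaged 2.97 to 3.22 and 3.06 to 3.08. OSH1, the defining gene of the shoot meristem, lay between 5.04 and 5.66 over the 12 arrays.

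Between 3 h and 6 h, 456 features changed in DXC, which is 1.24% of those tested. Of these, 339 rose (0.925%) and 117 fell (0.319%), and all 456 moved in the same direction in each of the 3 experiments. At an unadjusted p under 0.05 by limma there were 3882 features, of which 1711 were lower, so the excess of rises depends on the threshold. Among the called features the rises were larger than the falls. The median step was 0.88 among the features that rose, with a highest of 3.51, and -0.70 among those that fell, with a lowest of -1.74. A step of at least 1 log2 unit was reached by 126 rising and 14 falling features, and a step of at least 2 by 14 and 0. The called features rose by medians of 0.95, 0.77 and 0.97 in experiments 1 to 3 and fell by medians of 0.74, 0.70 and 0.72. The arrays of the 2 hours did not overlap for 328 of the 339 rising features, against 7.07% of all features whose arrays were apart in that direction, and for 115 of the 117 falling ones, against 6.5%. This was the contrast that chose them. Over all features the median step was -0.01, and the steps of 2 experiments correlated by 0.18 to 0.26 across features, which are not independent replicates.

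The number of calls depended on the pairing and on each experiment. Without the replicate block 134 features were called, and leaving out experiment 1, 2 or 3 left 51, 247 and 119, of which 51, 185 and 107 were among the 456. The called features comprised 386 with 1 annotated gene (284 genes higher and 102 lower), 69 with none and 1 with several. Of the 386, 377 were protein-coding, 7 were long non-coding RNAs and 2 were pseudogenes. A gene name beyond a locus number was known for 43 of the rising and 20 of the falling features. Of the 63 called genes named below, 21 were called under at most 7 of the 13 or 14 alternative settings tried for each, so their rises and falls rest on the fit used. CIPK32 (3), HOX10 (4) and LOC4348568 (4) were called under the fewest. BURP12, CBL9, CML10, EXPA1, GH3-8 and IAA31 were called under 5, and CML27, CSLA1, ETR2, LOC4325078, LOC4326149, LOC4345363 and LOC9271283 under 6. ACO1, HSP26.2, ILI5, LOC4337839 and SK3 were called under 7.

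In DX the same 3 h interval gave 7 calls (0.0191%), all higher and none among the 456 of DXC. No feature was called lower in DX by limma, although 560 had a lower level at an unadjusted p under 0.05. The features that rose in DXC had a median step of 0.05 in DX, and those that fell a median of -0.10, against 0.02 for all features. The steps of 2 experiments of DX correlated by -0.01 to 0.03 across features. The plot of DXC steps against DX steps shows the features called in DXC as a column along the DXC axis. This shape follows in part from their choice by the DXC step.

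**Figure D1:**
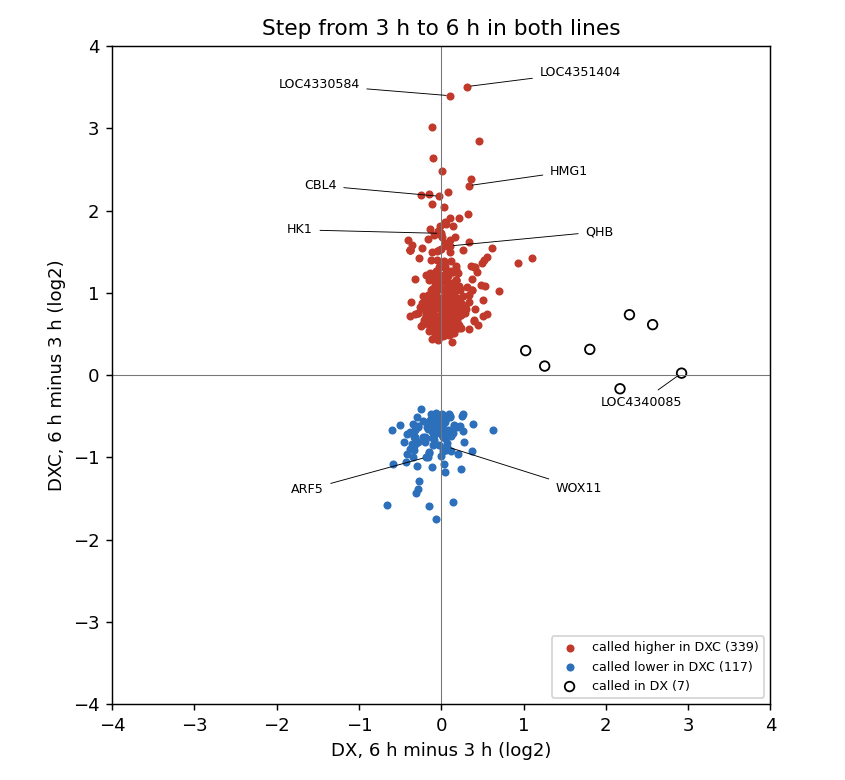
Step from 3 h to 6 h (log2) in DXC (vertical axis) against DX (horizontal axis); each point is 1 feature, red for the 339 called higher in DXC, blue for the 117 called lower, and black circles for the 7 called in DX. DXC steps reach 3.51 while the 7 features called in DX have DXC steps between -0.17 and 0.73.

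The difference between the lines was tested directly as the DXC step minus the DX step. It was called for 110 features (0.3%), 94 with the more positive step in DXC (0.257%) and 16 with the more negative one (0.0437%). Of the 339 rising features 93 were among the 94, and of the 117 falling features 9 were among the 16. For the other called features, a step in DXC that differs from that in DX was not established. The difference was called for 0 features without experiment 1 (1928 had an unadjusted p under 0.05), and for 7 without experiment 2 and 7 without experiment 3.

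The largest rises were in genes without a descriptive name. Most genes on the array lack one: 2743 of the 24161 features with 1 gene have a name. LOC4351404, annotated as a transcribed pseudogene, read 3.44, 3.68 and 5.73 at 3 h and 7.83, 7.47 and 8.08 at 6 h in DXC, experiments 1 to 3 in order. Experiment 3 was already above the other 2 at 3 h, and all 3 arrays at 6 h lay above all 3 at 3 h. Its step was 3.51 ± 0.32 (SE), an 11.4-fold rise with adjusted p = 1.37e-05, while DX stayed between 3.23 and 4.05. LOC4330584 read 4.59, 4.77 and 4.83 at 3 h and 8.16, 7.78 and 8.43 at 6 h. The experiments were close together at both hours, and the rise was 10.5-fold with a step of 3.40 ± 0.21 (SE) and adjusted p = 2.89e-07. In DX the same gene read 5.12, 4.77 and 5.21 at 3 h and 5.56, 4.46 and 5.38 at 6 h, with no common direction. LOC4336268 rose 8.09-fold, from 4.05, 4.04 and 3.54 to 6.75, 6.64 and 7.29 (adjusted p = 1.44e-06). All 3 genes also passed the test of the difference between lines. At 3 h in DXC, LOC4336268 and LOC4351404 had low means of 3.88 and 4.28. In those arrays 33.0% to 34.1% of features read under 4.

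LOC4327048 rose by 2.85 ± 0.20 (SE), LOC4340119 by 2.64 ± 0.28 (SE) and LOC9268927 by 2.48 ± 0.31 (SE). Their arrays at 3 h lay between 4.33 and 5.65 and those at 6 h between 6.88 and 8.25, so the hours did not overlap in any of them. LOC4347408 started lowest, with 2.82, 2.52 and 2.90 at 3 h and 5.02, 4.16 and 6.21 at 6 h. Its 3 experiments rose by unequal amounts, the step was 2.38 ± 0.44 (SE) with adjusted p = 0.0103, and the difference from DX was not called (adjusted p = 0.344). LOC9272689 rose by 2.22 ± 0.25 (SE), LOC4352883 by 2.08 ± 0.18 (SE) and LOC4344753, a long non-coding RNA, by 2.20 ± 0.27 (SE), each with a called difference between the lines. The gene listed as HMG1 rose 4.93-fold, from 4.13, 4.39 and 4.43 to 6.49, 6.39 and 6.97, with the smallest standard error of the 12 largest rises (0.16). LOC9271993 differed from all of these in being far above DX at 3 h. It read 7.79, 8.67 and 8.47 at 3 h and 9.82, 9.82 and 10.32 at 6 h in DXC and 4.28 to 4.95 over the 6 arrays of DX, and it had stood at 4.12 ± 0.14 (SD, n = 3) in DXC at 0 h. Its further step from 3 h to 6 h was 1.68 ± 0.18 (SE), with adjusted p = 6.56e-05.

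**Figure D2:**
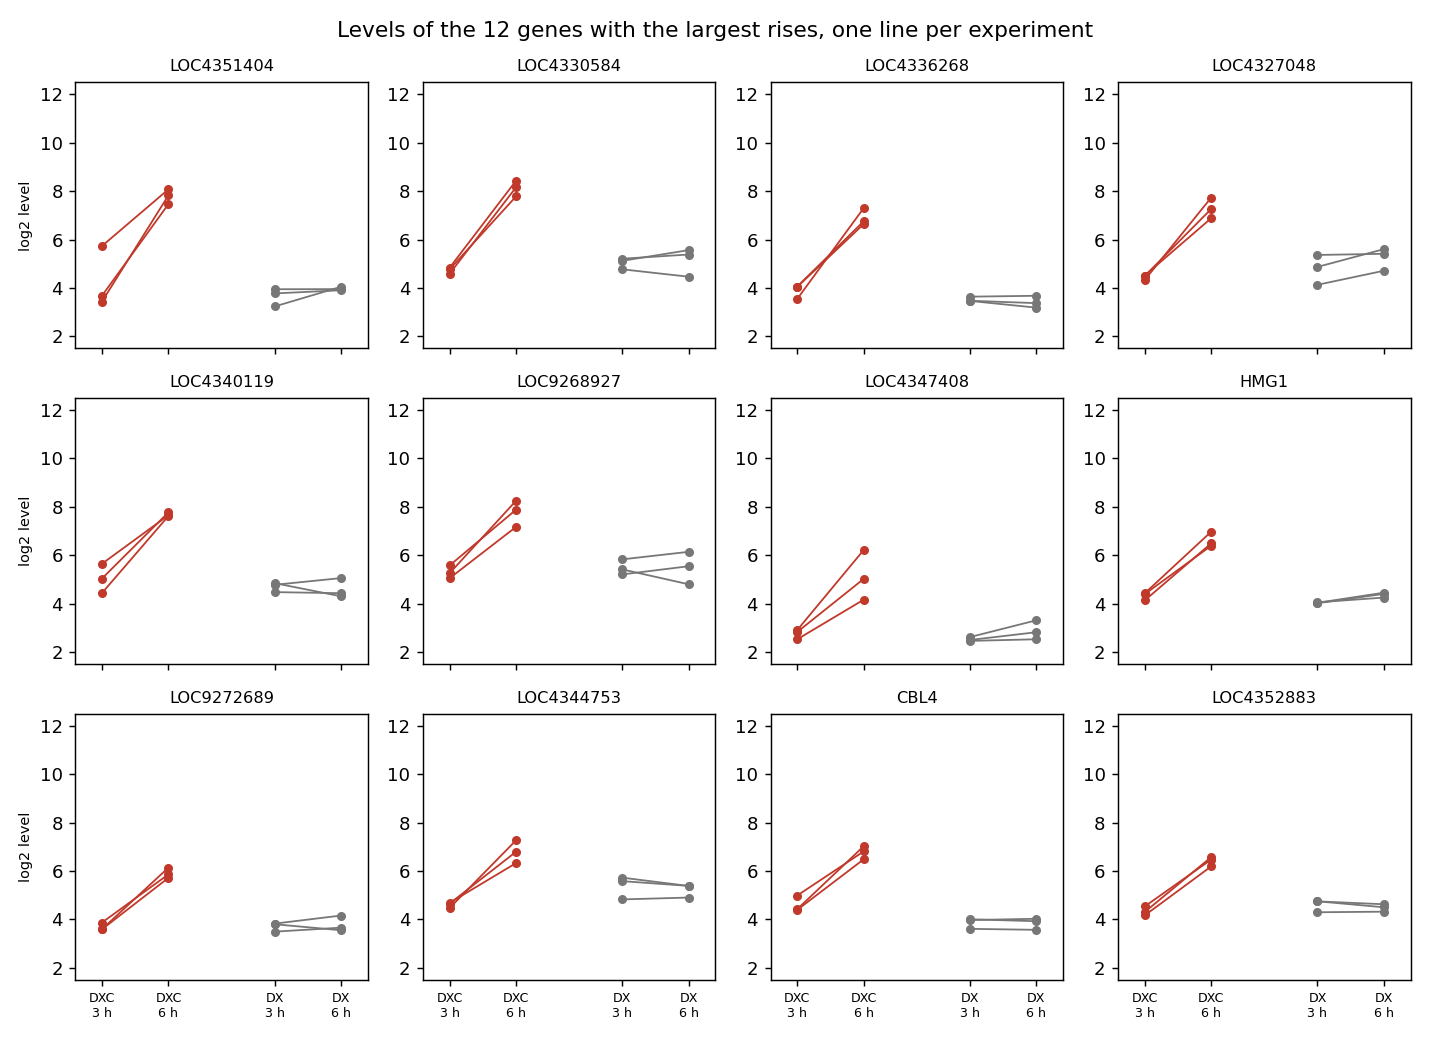
Log2 level of the 12 annotated genes with the largest rises in DXC, at 3 h and 6 h; each line joins the 2 arrays of 1 experiment, red for DXC and grey for DX. In every panel the 3 red lines rise and the 6 h points of DXC lie above its 3 h points.

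Calcium and two-component signalling genes were among the largest rises with a name. CBL4, a calcineurin B-like calcium sensor, read 4.39, 4.98 and 4.41 at 3 h and 6.48, 6.81 and 7.02 at 6 h in DXC. Every experiment rose, by 2.17 ± 0.19 (SE) or 4.51-fold (adjusted p = 9.96e-06), while DX lay between 3.57 and 4.02 over both hours. The difference between lines was 2.20 (adjusted p = 0.00112). Over all features 0.925% rose and 0.319% fell, shares that also stand beside the list counts below. Of the 37 CBL and CIPK genes 1 rose and 2 fell, with a median step of -0.04. The 2 that fell were CIPK32, a kinase bound by CBL proteins (-0.71 ± 0.16 (SE), adjusted p = 0.0395), and CBL9 (-0.42 ± 0.10 (SE), adjusted p = 0.0445). Among 52 calcium-dependent kinase and calmodulin-like genes 3 rose and 0 fell, with a median of 0.02. These were the calmodulin-like genes CML22 (1.12), CML27 (1.04) and CML10 (0.65), none with a called difference from DX.

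HK1, also called MHZ1, a histidine kinase known from the ethylene response of rice roots, read 4.53, 4.16 and 5.09 at 3 h and 6.00, 6.40 and 6.55 at 6 h. All arrays at 6 h were above all at 3 h, and the step was 1.72 ± 0.15 (SE), 3.3-fold (adjusted p = 1.15e-05). In DX it read 4.09, 4.25 and 4.16 at 3 h and 4.04, 4.04 and 4.40 at 6 h, and the difference between the lines was called (adjusted p = 0.00134). It was the 1 called member of the 8 histidine kinases and phosphotransfer proteins, whose median step was -0.04. The 9 type-A response regulators, which are targets of cytokinin signalling, and the 17 cytokinin metabolism genes had no call, with medians of -0.04 and -0.09.

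Of the 7 crown root regulators, QHB rose, WOX11 fell and 5 were not called, while 1.24% of all features were called. QHB, the homeobox gene of the quiescent centre, read 3.86, 3.94 and 4.20 at 3 h and 5.27, 5.47 and 5.97 at 6 h in DXC. The hours did not overlap. At 3 h QHB read near 4, a level under which 33.0% to 34.1% of features lay in those arrays. The step was 1.57 ± 0.17 (SE), a 2.97-fold rise in normalised signal (adjusted p = 8.85e-05), and DX lay between 3.92 and 4.64 over both hours. Its difference between the lines was 1.46 (adjusted p = 0.0123). WOX11, which in rice promotes crown root emergence and growth, read 5.39, 5.51 and 5.38 at 3 h and 4.42, 4.72 and 4.52 at 6 h. It fell in every experiment by 1.83-fold (step -0.87 ± 0.14 (SE), adjusted p = 0.00358). The difference from DX, whose step was 0.08 ± 0.14 (SE), did not pass the threshold (adjusted p = 0.0634). Among the 5 without a call, IAA23, an Aux/IAA gene required to maintain the quiescent centre of rice roots, read 3.66, 4.63 and 4.20 at 3 h and 4.51, 5.20 and 4.87 at 6 h, higher in every experiment with a step of 0.70 ± 0.20 (SE) but adjusted p = 0.115. The homeobox gene hox14 had a step of 0.67 ± 0.24 (SE) (adjusted p = 0.261), and the cytokinin oxidase gene CKX4 one of -0.26 ± 0.14 (SE) (adjusted p = 0.585). The type-A response regulator OsRR2 had -0.31 ± 0.16 (SE) and WOX10 -0.04 ± 0.15 (SE), with adjusted p of 0.53 and 0.98. QHB and WOX11 were also the only 2 called among the 8 WOX genes measured, where the median step was -0.08.

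Single auxin genes changed in either direction. Of the 28 Aux/IAA repressor genes, 1 rose and 2 fell, against 0.925% and 0.319% of all features, with a median step of -0.06. IAA6 read 5.00, 5.69 and 5.70 at 3 h and 6.41, 6.21 and 6.49 at 6 h and rose by 0.91 ± 0.17 (SE) (adjusted p = 0.0105). The DX arrays also read higher at 6 h in each experiment, from 4.47, 4.69 and 4.31 to 4.76, 5.48 and 4.77, and the difference was not called. IAA24 (-0.76 ± 0.11 (SE)) and IAA31 (-0.63 ± 0.14 (SE)) fell, and IAA24 was near the bottom of the scale, between 2.83 and 3.92. Of the 19 ARF genes 1 rose and 1 fell. ARF5 read 7.42, 7.56 and 7.03 at 3 h and 6.34, 6.61 and 6.07 at 6 h and fell 2-fold (step -0.998 ± 0.14 (SE), adjusted p = 0.000989), by a similar amount in all 3 experiments. ARF2 read 6.25, 6.92 and 6.25 at 3 h and 7.16, 7.55 and 7.07 at 6 h and rose by 0.79 ± 0.11 (SE) (adjusted p = 0.000934). Neither difference from DX was called. Among the 9 GH3 genes, which include enzymes that conjugate auxin to amino acids, GH3-8 rose by 1.08 ± 0.25 (SE) (adjusted p = 0.0456). It was the 1 called member of that list, its median was -0.01, and the difference from DX was not called (adjusted p = 0.833). The 6 auxin transport genes and 2 auxin synthesis genes gave no call, with medians of -0.03 and -0.01. The LBD list held 1 measured gene, which had a step of 0.42 and was not called.

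Single genes of the brassinosteroid and ethylene pathways fell. CYP90D2, a cytochrome P450 of brassinosteroid synthesis, read 7.52, 7.93 and 8.09 at 3 h and 6.60, 7.17 and 6.89 at 6 h in DXC and fell 1.95-fold (adjusted p = 0.00206). In DX it read 7.26, 7.50 and 7.33 at 3 h and 7.35, 7.83 and 7.52 at 6 h, higher in each experiment, and the difference between lines was -1.17 (adjusted p = 0.021). ILI5, a helix-loop-helix gene of the group that acts in brassinosteroid responses, fell by 0.85 on the log2 scale (adjusted p = 0.0263). These were the 2 called of 12 brassinosteroid genes, against 1.24% of all features, and the list median was -0.02. CYP734A6, of a P450 family that inactivates brassinosteroids in rice, was outside that list and rose from 7.39, 7.92 and 7.21 to 8.42, 8.81 and 8.58, a step of 1.10 ± 0.15 (SE) (adjusted p = 0.000785) with a called difference from DX. Of 11 ethylene genes 2 fell and 0 rose, with a median of -0.17. They were ACO1, whose product makes ethylene from its precursor (8.76, 9.01 and 8.51 at 3 h and 7.89, 8.26 and 7.95 at 6 h, step -0.72 ± 0.15 (SE)), and the ethylene receptor gene ETR2 (-0.70 ± 0.14 (SE)). For neither was the difference from DX called.

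**Figure D3:**
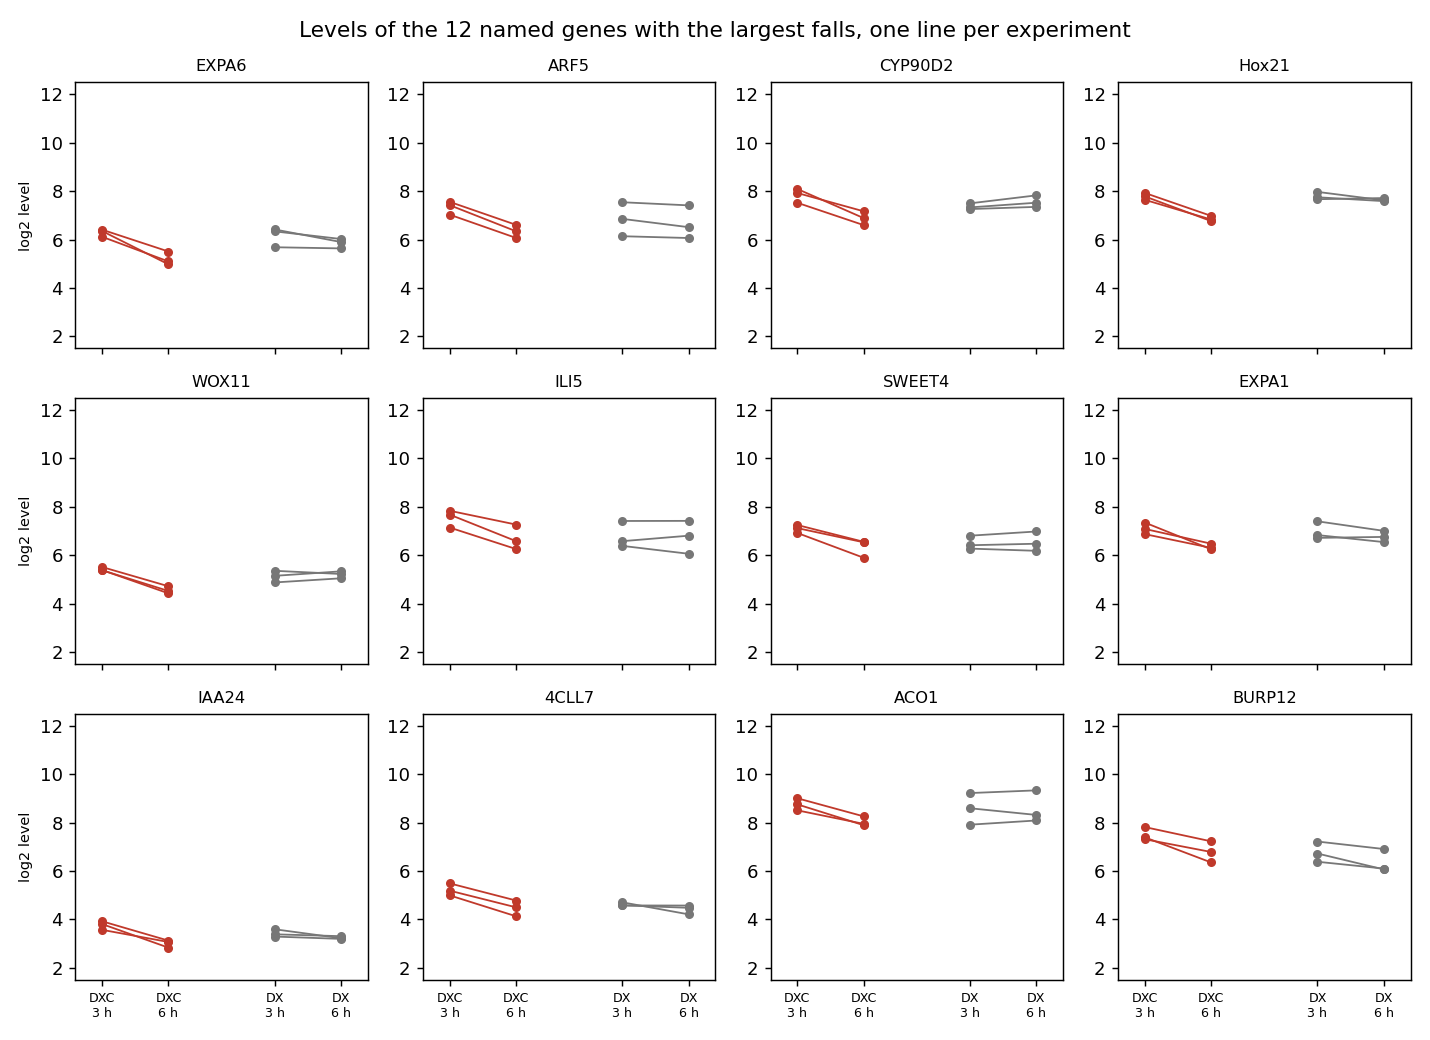
Log2 level of the 12 genes with a name and the largest falls in DXC, at 3 h and 6 h; each line joins the 2 arrays of 1 experiment, red for DXC and grey for DX. The red lines fall in every panel, by 0.72 to 1.10 on average.

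Wall genes split between expansins. EXPA5 read 5.99, 6.09 and 5.96 at 3 h and 7.30, 7.21 and 7.30 at 6 h, with nearly equal experiments, and rose 2.39-fold (adjusted p = 0.000115), with a called difference from DX. EXPA6 read 6.12, 6.41 and 6.35 at 3 h and 5.09, 5.51 and 4.97 at 6 h and fell 2.15-fold (adjusted p = 0.00262), and EXPA1 fell by 0.76 on the log2 scale (adjusted p = 0.0207). Expansins loosen the wall during growth. These 3 were the called members of 47 wall-loosening genes, against 1.24% of all features, and the list median was -0.05. Of 34 cellulose synthase and cellulose synthase-like genes 2 rose. They were the cellulose synthase gene CESA6 (0.71 ± 0.12 (SE)) and the cellulose synthase-like gene CSLA1 (0.72 ± 0.16 (SE)). The 36 secondary wall genes had 0 calls by limma (6 had an unadjusted p under 0.05), with 25 steps below 0 and a median of -0.08.

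Of 73 cell cycle and replication genes 1 was called (1.37%), against 1.24% of all features. RFC1, the large subunit of the clamp loader in DNA replication, read 5.71, 5.74 and 5.62 at 3 h and 6.40, 6.31 and 6.45 at 6 h and rose by 0.70 ± 0.10 (SE) (adjusted p = 0.00157), with a called difference from DX. The DNA replication list had no other call, with 24 of the 35 above 0 and a median of 0.06. Its medians in experiments 1 to 3 were -0.06, 0.03 and 0.19. The 11 mitotic cyclin and CDKB genes, 10 D-type cyclins, 8 inhibitors and 9 H2B histones gave no call, with medians of -0.08, -0.09, -0.08 and -0.07. The 22 ribosomal protein genes were not called either and had a median of -0.07.

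Transport, stress and transcription factor genes added single members. SWEET15 rose by 1.62 ± 0.35 (SE) and SWEET4, a second sugar transporter gene, fell by 0.77 on the log2 scale. They were the only 2 called of 48 sugar genes, against 1.24% of all features. PROT1, a proline transporter gene, read 3.23, 3.99 and 3.62 at 3 h and 5.18, 4.71 and 4.88 at 6 h and rose by 1.31 ± 0.23 (SE) (adjusted p = 0.00669). GDH2, a glutamate dehydrogenase gene, rose by 1.40 ± 0.18 (SE) and differed from DX (adjusted p = 0.0218). The protein phosphatase 2C genes PP2C40 (1.24 ± 0.12 (SE)) and PP2C15 (0.73 ± 0.10 (SE)) rose, and the first also differed from DX. They were the 2 called of 79 genes in the abscisic acid list. That list takes in protein phosphatase 2C genes by family name, so a role in abscisic acid signalling is not shown for either. MYBS2, a MYB factor of the sugar response, rose by 0.96 ± 0.13 (SE), and APX2, a cytosolic ascorbate peroxidase gene, by 0.72 ± 0.11 (SE), both with a called difference from DX. HSP26.2 was the 1 called of 48 heat shock genes (0.88 ± 0.19 (SE)). Of 34 HD-ZIP and ROC homeobox genes, HOX10 rose (0.53 ± 0.12 (SE)) and Hox21 fell (-0.93 ± 0.13 (SE)). Hox21 lay between 7.64 and 7.93 at 3 h and between 6.76 and 6.98 at 6 h. SK3 rose by 1.36 ± 0.32 (SE) with an adjusted p close to the threshold (0.0487), 4CLL7, a gene like those of 4-coumarate-CoA ligases, fell by 0.75 and BURP12 by 0.72 on the log2 scale.

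No call was made in the lists of gibberellin metabolism (9 genes), jasmonate (39), aquaporins (27), iron and metals (43), phosphate (22), nitrate and ammonium (19), MADS-box (31), bZIP (22), ERF and DREB (14), NAC (10), WRKY (6), ROP signalling (7), pathogenesis-related (14), clock (7), hypoxia (7), AP2/PLETHORA (3), SCARECROW and SHORT-ROOT (3), class III peroxidases (2) and SAUR (1). Their medians ran from -0.81 for the 2 peroxidase genes to 0.32 for the 1 SAUR gene. The aquaporin genes had a median of -0.16, with 21 of 27 below 0, against a median of -0.01 for all features. Their medians in experiments 1 to 3 were 0.03, -0.23 and -0.14, so experiment 1 did not share the lower level. Over all 33 lists without a call, 49 of 455 memberships (10.8%) had an unadjusted p under 0.05 by limma, against 10.6% of all features.

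**Figure D4:**
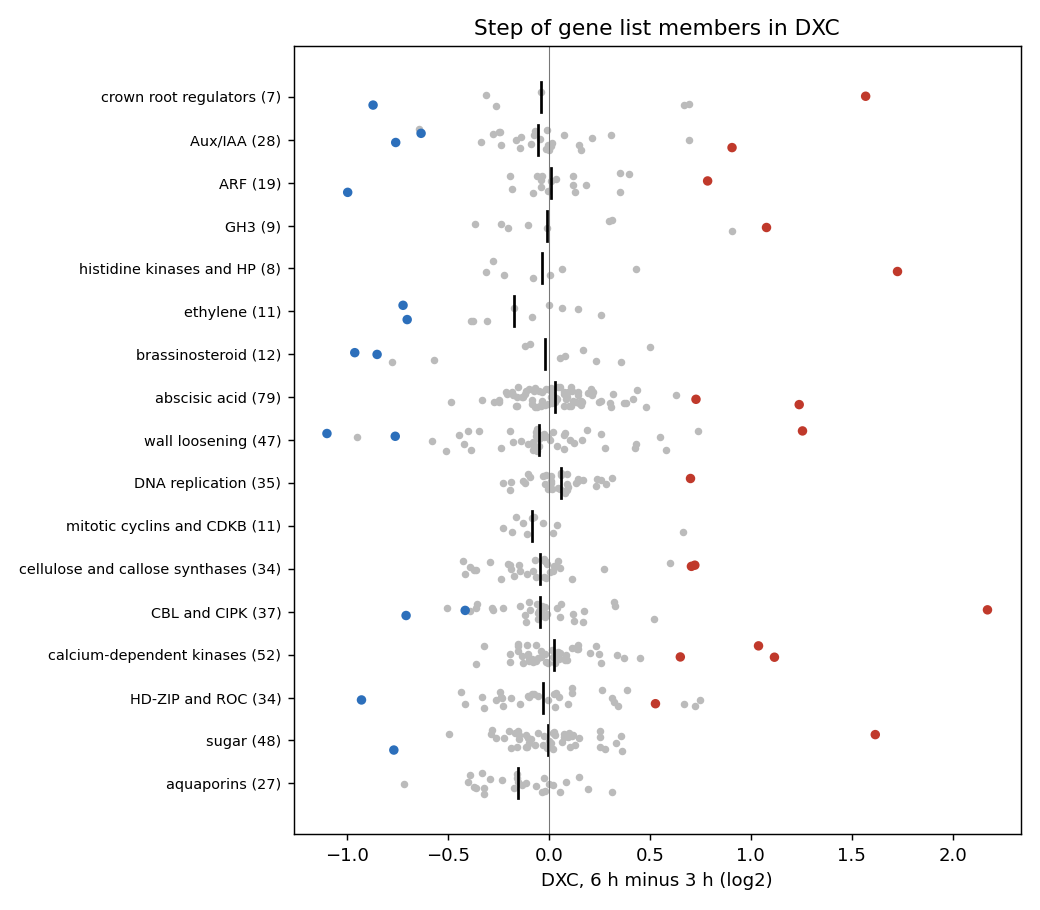
DXC step (log2) of every member of 17 gene lists, 1 point per feature, with the number of members in brackets; red and blue points were called higher and lower, grey points were not called, and black bars are list medians. The list medians lie between -0.17 and 0.06. Colour follows the call and not the size of the step. An uncalled HD-ZIP and ROC member at 0.75 lies beyond the called HOX10 at 0.53. The list labelled cellulose and callose synthases holds cellulose synthase and cellulose synthase-like genes only.

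Of the 12 largest falls, 10 were also in genes without a descriptive name, as are most genes on the array. LOC4326149 read 4.81, 4.77 and 6.63 at 3 h and 3.71, 3.81 and 3.91 at 6 h and fell 3.02-fold (-1.59 ± 0.34 (SE), adjusted p = 0.0293). Its 6 h arrays were tight, and the 3 h array of experiment 3 was higher than the other 2. LOC9271283 fell by 1.58 and LOC4337839 by 1.54 on the log2 scale, with standard errors of 0.37 and 0.34. LOC9271064 read 8.32, 8.50 and 8.49 at 3 h and 6.72, 7.33 and 7.12 at 6 h and fell 2.61-fold with a smaller error (0.20, adjusted p = 0.00107). LOC4347763 fell by 1.43, LOC4345363 by 1.18, LOC4348568 by 1.15, LOC4324560 by 1.08 and LOC4340627 by 1.06. LOC4328020 read 6.33, 6.22 and 6.41 at 3 h and 5.30, 5.23 and 5.17 at 6 h, was even across experiments, and was the 1 of these 10 with a called difference from DX (adjusted p = 0.021).

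The called difference was negative for 8 named genes, whose steps in DX ran from 0.04 for LOC4328020 to 2.92 for LOC4340085. LOC4340085 read 5.36, 5.39 and 4.55 at 3 h and 8.20, 8.48 and 7.39 at 6 h in DX, a step of 2.92 ± 0.36 (SE). In DXC it read 8.16, 5.07 and 7.53 at 3 h and 7.43, 5.81 and 7.60 at 6 h, so 2 of the 3 experiments were already near the 6 h level of DX at 3 h. LOC4351298 likewise read 6.91, 8.04 and 6.02 at 3 h and 9.29, 9.43 and 8.76 at 6 h in DX and 8.88, 8.10 and 8.89 at 3 h and 8.60, 7.84 and 8.93 at 6 h in DXC. GAPC3, a cytosolic glyceraldehyde phosphate dehydrogenase gene, had steps of 1.07 ± 0.21 (SE) in DX and -0.58 ± 0.21 (SE) in DXC. LOC4323903 and LOC4344255 also had positive steps in DX (0.82 and 0.78) and negative ones in DXC (-0.71 and -0.59), and GAPC3, LOC4323903 and LOC4344255 were called in neither line alone. LOC4325078 was called lower in DXC (-0.67 ± 0.13 (SE), adjusted p = 0.0139) and had a step of 0.63 ± 0.13 (SE) in DX. The 7 hypoxia genes (haemoglobins, pyruvate decarboxylases and an alcohol dehydrogenase) averaged 5.54 to 5.62 in DX arrays at 3 h and 6.00 to 6.26 at 6 h. In DXC they averaged 5.60 to 6.12 at 3 h and 5.77 to 6.18 at 6 h. No member was called in either line, with median steps of 0.77 in DX and 0.01 in DXC, and their part in these differences was not tested.

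The other hours give levels that were not part of the step, although the arrays at 0 h and 9 h entered the estimate of the spread. Set against 0 h, the rising features stood at a median of 0.93 in DXC at 9 h, with 315 of 339 above their 0 h mean, against 47.7% of all features. The median declined to 0.48 by 12 h, 0.22 by 24 h and 0.13 by 45 h, with 216 of 339 still above 0 h. The falling features had a median of -0.63 at 9 h and stayed low, at -0.45 by 24 h and -0.44 by 45 h, when 99 of 117 were below 0 h. In DX the rising set was at -0.03 and the falling set at -0.05 at 9 h. Later hours of DX gave the rising set 0.09 at 12 h, with 230 of 339 above 0 h, and 0.01 at 45 h. The falling set of DX stood above 0 h at 12 h (0.14), 18 h (0.17), 36 h (0.17) and 45 h (0.08). From 24 h to 33 h its median lay between -0.02 and 0.01, so it did not stay above 0 h throughout. At 3 h the rising features stood at a median of 0.12 in DXC, and 60 of the 117 falling ones were below 0 h. The choice of features by their 6 h level favours an extreme at 6 h. Of the 339 rising features, 201 (59.3%) had their highest hourly mean at 6 h and 123 (36.3%) at 9 h, against 14.2% and 8.12% of all features. Of the 117 falling ones, 46 (39.3%) had their lowest hourly mean at 6 h and 15 (12.8%) at 9 h, against 12.4% and 7.97%.

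Single genes showed both courses. QHB in DXC stood at 4.02 ± 0.16 (SD, n = 3) before induction and peaked near 5.57 ± 0.36 at 6 h, with 5.15 ± 0.44 by 9 h and 4.44 ± 0.29 by 12 h. It was back at 3.94 ± 0.13 at 15 h, where DX was at 4.28 ± 0.15. HK1 reached 6.81 ± 0.19 at 9 h and was at 4.90 ± 0.27 at 45 h, when DX was at 3.75 ± 0.24. CBL4 peaked at 6 h (6.77 ± 0.27) and stood at 4.28 ± 0.19 at 45 h. WOX11 in DXC began at 5.79 ± 0.41, reached 4.55 ± 0.15 by 6 h and stood at 4.88 ± 0.12 by 45 h, against 5.73 ± 0.53 in DX. CYP90D2 began at 7.95 ± 0.26, stood at 6.88 ± 0.29 by 6 h and ended the series at 7.73 ± 0.34. ARF5 varied over the hours in DX as well, with means of 6.66 at 6 h and 7.71 at 12 h. LOC4330584 stood higher still at 9 h (9.77 ± 0.42) and was at 4.79 ± 0.29 at 45 h.

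**Figure D5:**
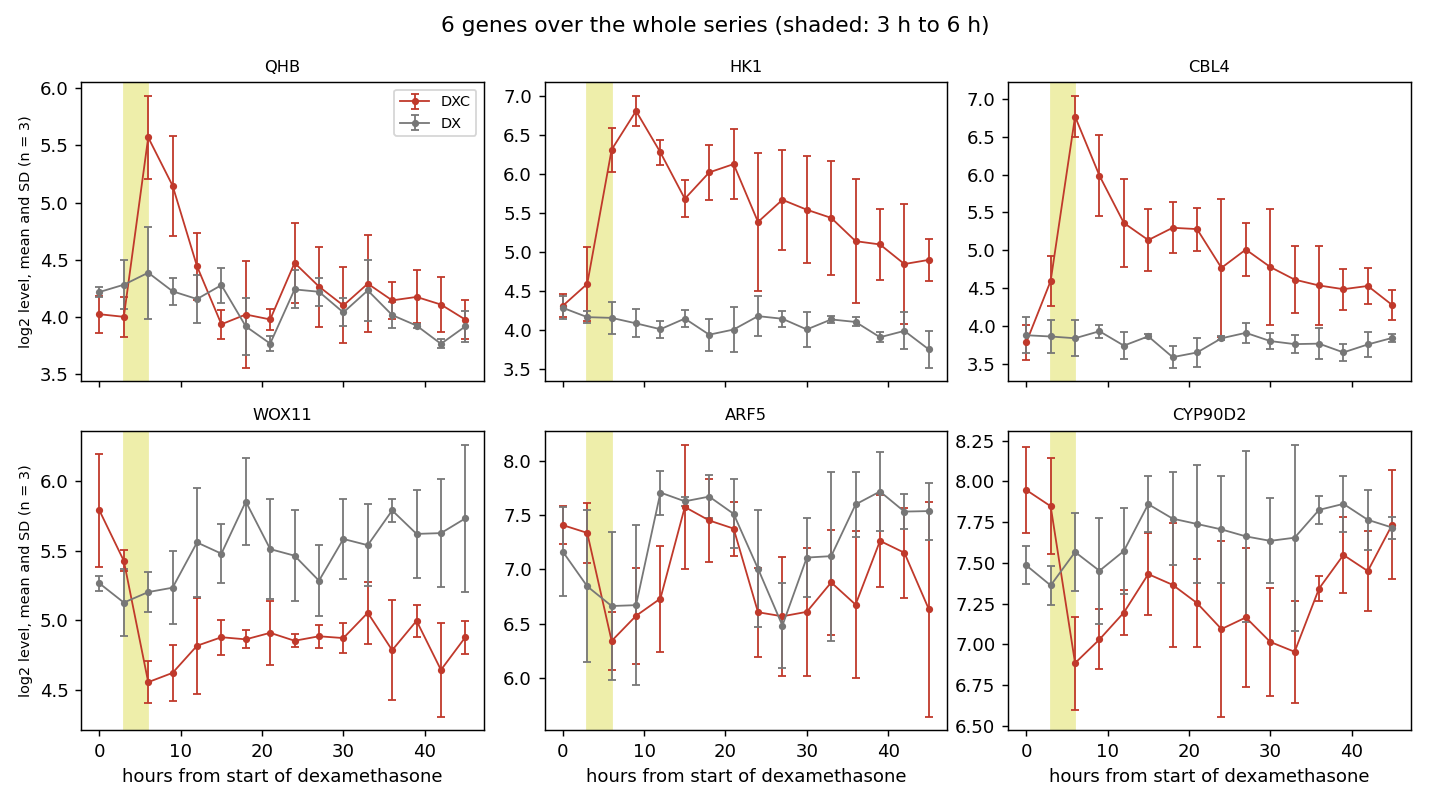
Log2 level (mean and SD over 3 experiments) of 6 genes at 16 hours from 0 to 45 h, red for DXC and grey for DX, with the interval from 3 h to 6 h shaded; the vertical scale differs between panels. QHB, HK1 and CBL4 rise and WOX11, ARF5 and CYP90D2 fall across the shaded interval in DXC.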

How the data were processed

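Expression was measured on Affymetrix arrays, 1 per pooled sample. The deposited values are log2 levels normalised by the authors with GCRMA, per the submitters' processing notes. The GCRMA version is not given in the sources used here, and no detection call stands behind a value. Precision depends on how many arrays a group has, here 3. All columns of the value table were tied to a sample (0 left over). Platform annotation gave 1 gene to 24161 of 36643 features, several to 90 and none to 12392; names came from the RefSeq gene table of assembly ASM3414082v1. No sequences were printed.

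The 24 arrays of both lines from 0 h to 9 h were fitted with limma 3.58.1 in R 4.3.3 (lmFit, eBayes with trend), with line-by-hour groups and a line-by-experiment replicate block (12 residual degrees of freedom). Adjusted p-values come from this limma fit (Benjamini-Hochberg over all features). The fit was tested on simulated data. The series design names the replicate numbers as independent experiments. Deviations from group means at 3 h and 6 h correlated by 0.12 to 0.21 between same-numbered DXC arrays and by 0.50 to 0.78 in DX. Other numbers gave -0.14 to 0.0005 in DXC and -0.67 to 0.18 in DX. Deviations from a mean of 3 arrays sum to 0, so lower values for other numbers follow in part from the arithmetic.

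Members, gene lists and tests were chosen with earlier results of these data known. Genes were named by rule: the 12 largest rises and falls among called annotated genes, the same among genes with a name, the 6 largest differences between lines each way, all crown root regulators, up to 4 called members of each other list and 8 genes known in advance. Features without exactly 1 gene were passed over, among them 1 unannotated feature (difference 2.44) and 1 with several genes (-1.96) that ranked among the 6 largest line differences. Alternatives varied the arrays fitted, the block, scaling, filter, moderation and call rule.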

Additional observations from a re-analysis of the deposited data

Results flagged for a closer look

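The step from 3 h to 6 h differed between the lines, by the limma test of the difference itself, for 110 features. Among the genes named by rule, the DXC step exceeded the DX step by 3.29 for LOC4330584, 3.19 for LOC4351404, 3.13 for LOC4336268, 2.75 for LOC4340119, 2.46 for LOC9268927 and 2.39 for LOC4327048 on the log2 scale. It exceeded it by 2.35 for LOC4344753, 2.20 for CBL4, 2.19 for LOC4352883, 2.14 for LOC9272689, 1.97 for HMG1, 1.73 for HK1, 1.52 for LOC9271993 and 1.46 for QHB. Smaller positive differences were 1.45 for GDH2, 1.17 for CYP734A6, 1.12 for EXPA5, 1.07 for MYBS2, 1.04 for PP2C40, 0.91 for APX2 and 0.74 for RFC1. The difference was negative for LOC4328020 (-1.12), CYP90D2 (-1.17), LOC4325078 (-1.30), LOC4344255 (-1.37), LOC4323903 (-1.54), GAPC3 (-1.65), LOC4351298 (-2.34) and LOC4340085 (-2.90). Groups of 3 arrays are too small for a test of single outlying samples, and none was run.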

How the results depend on the processing

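Among the 63 named genes called in DXC, no step changed sign under any alternative. Only quantile normalisation and scaling to 1 median and MAD could have changed a sign. The other alternatives keep the step itself or average experiments that already had the same sign. Under all 14 alternatives run for single genes, 15 genes were called, among them LOC4330584, HMG1, CBL4, HK1, QHB, EXPA5 and PP2C40. Fewest of the 63 remained called without experiment 1 (15) and most with moderation without trend (63). WOX11 was called under 11 of the 14 (highest adjusted p = 0.113) and ARF5 under 10 (0.672), while 21 genes were called under at most 7, the fewest for CIPK32 (3 of 13, highest adjusted p = 0.938). Over all lists, 109 of 728 counts of called members moved by over 1.5 times or to or from 0. The 728 include the 33 lists without a call in the fit used, where a count that stays at 0 is no move.

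Without the replicate block, 134 features were called in DXC (93.3% of them higher, against 74.3% in the fit used), 0 in DX (535 at an unadjusted p under 0.05) and 23 for the difference. With the experiment shared by both lines as replicate block these were 209, 0 (839 unadjusted) and 45. All 96 arrays with the replicate block gave 443, 0 (1013 unadjusted) and 99, and without it 289, 0 (717 unadjusted) and 58. Only the 12 arrays at 3 h and 6 h gave 357, 2 and 37. Leaving out 1 experiment gave 51 to 247 in DXC, 0 to 3 in DX (1420 unadjusted at 0) and 0 to 7 for the difference. Quantile normalisation gave 386, 11 and 94, scaling to 1 median and MAD 353, 12 and 91. A step of at least 1 log2 unit as a second condition left 140, 7 and 86. A filter at a mean of 4, both other moderations and DXC arrays alone (chosen after seeing the data, 484) stayed within 1.5 times. The cause of these differences was not tested. Each fit with fewer arrays has fewer degrees of freedom, and 59 of the 339 rising features had a mean under 4 at 3 h.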

Other observations

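Features without an annotated gene held 69 of the 456 calls, and the 1 feature with several genes is named in no result. The DX step called 7 features, of which 4 had 1 gene: LOC4340085, LOC4348710 (2.29 in DX and 0.73 in DXC), LOC4351298 and LOC4351721 (1.26 in DX and 0.11 in DXC). LOC4348710 and LOC4351721 were outside the naming rule and were chosen after their values were seen. LOC4332673 was the last annotated feature inside the DXC threshold (step 0.73, adjusted p = 0.0499) and LOC9271436 the first outside it (step 0.70, adjusted p = 0.0502).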
